A study of Mus musculus with 9 samples.

Results

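The mitochondrial ribosomal protein genes were described in the hMLKL1-181-2Fv-NIH3T3 line, mouse NIH3T3 fibroblasts named for a fusion of part of human MLKL with Fv domains. Members were the genes whose probe set names 1 symbol, of the form Mrpl or Mrps followed by a number. They were 71 of 22180 genes tested, 43 named Mrpl and 28 named Mrps. The rule uses symbols and no measured difference, and of several probe sets of a gene the one with the highest mean was used. The groups, of 3 arrays each, were annexin V-positive cells sorted after 1 h of 50 nM B/B and given 6 h of washout (washout), annexin V-positive cells sorted after 1 h of B/B (B/B 1 h), and control cells. The series design gives 3000 nM for the washout and names no compound for it. B/B is a dimerizer of Fv domains, annexin V binds phosphatidylserine on the cell surface, and MLKL is the protein that breaches the plasma membrane in necroptosis. Every group was of this line, and the level of the fusion protein in each is not given. Whether the line is 1 clone, whether control cells were sorted and when they were harvested are not given, so that B/B, sorting and time in culture cannot be told apart in a comparison with control.

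Mitochondria keep a small genome, and its messenger RNA is translated inside the organelle by a ribosome of its own, the mitoribosome. All protein subunits of the mitoribosome are encoded in the nucleus in mammals, made in the cytosol and imported, and they join ribosomal RNA made from mitochondrial DNA. Most proteins named Mrpl belong to the large subunit, which forms peptide bonds, and most named Mrps to the small subunit, which reads the codons. Some have counterparts in bacterial ribosomes, and others are found only in mitochondria.

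Values were log2 probe set levels as deposited, and the median of all probe sets lay between 4.6 and 4.68 on each array. Between arrays of the same group r was 0.998 to 0.999 over all genes, and between arrays of separate groups 0.99 to 0.998, as a description across genes. No member was in the lowest 30% of genes by mean level, 69 were in the upper 50%, and none was left out by a filter. All 12 fibroblast markers were above the lowest 30%. Their mean log2 level per array was 9.651 to 9.660 after washout, 10.001 to 10.062 at B/B 1 h and 10.014 to 10.041 in control, and 1 of 12 rose and 7 fell in washout against control. Of 10 leukocyte markers 9 were measured, 5 of them in the lowest 30%, with mean log2 levels of 5.12 to 5.13 after washout, 5.14 to 5.20 at B/B 1 h and 4.97 to 4.9965 in control. At B/B 1 h against control 4 of these 9 rose (Cd79a, Cd68, Cd14 and Adgre1) and 0 fell, and after washout 1 rose (Cd14, by 1.47, log2) and 2 fell. The part of these shifts in the results was not tested, and in bulk RNA fewer cells of a type cannot be told apart from less RNA per cell. No label says if replicates were separate cultures, so p-values measure the spread between these samples, which may be technical.

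After washout the members moved in both directions. Mrps31, Mrpl47, Mrps16, Mrpl50, Mrps22, Mrps2, Mrpl40 and Mrpl49 rose against control, by 0.15 to 0.62 (log2), and 22 members fell, by 0.16 to 0.56 (log2). The highest value, that of Mrps31, was a 1.53-fold rise. The 8 lowest among those that fell were Mrps21, Mrpl20, Mrps15, Mrpl18, Mrpl14, Mrpl54, Mrps24 and Mrpl4. The test was limma's moderated test in 1 fit of all 3 groups, and "rose" and "fell" stand for a Benjamini-Hochberg adjusted p under 0.05 over all genes tested.

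The 30 members that passed were 42.3% of the family, against 26.2% of all genes tested. Among genes in the upper 50% by mean level, 43.5% of the 69 members there passed, against 48.1% of all such genes. By direction, 11.3% of the members were higher and 31% lower, against 14.5% and 11.7% of all genes. In the upper 50% by level, 11.6% of members were higher and 31.9% lower, against 26.4% and 21.8% of all such genes. The washout and control arrays did not overlap in 47 members (66.2%, against 38% of all genes), with washout above in 14 (19.7%, against 20.2%) and below in 33 (46.5%, against 17.8%). The median log2 difference of the members was -0.09, against 0.00 over all genes. The 8 that rose became 5 without washout replicate 1, control replicate 1 or control replicate 2, and also 5 with array medians centred.

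**Figure D1:**
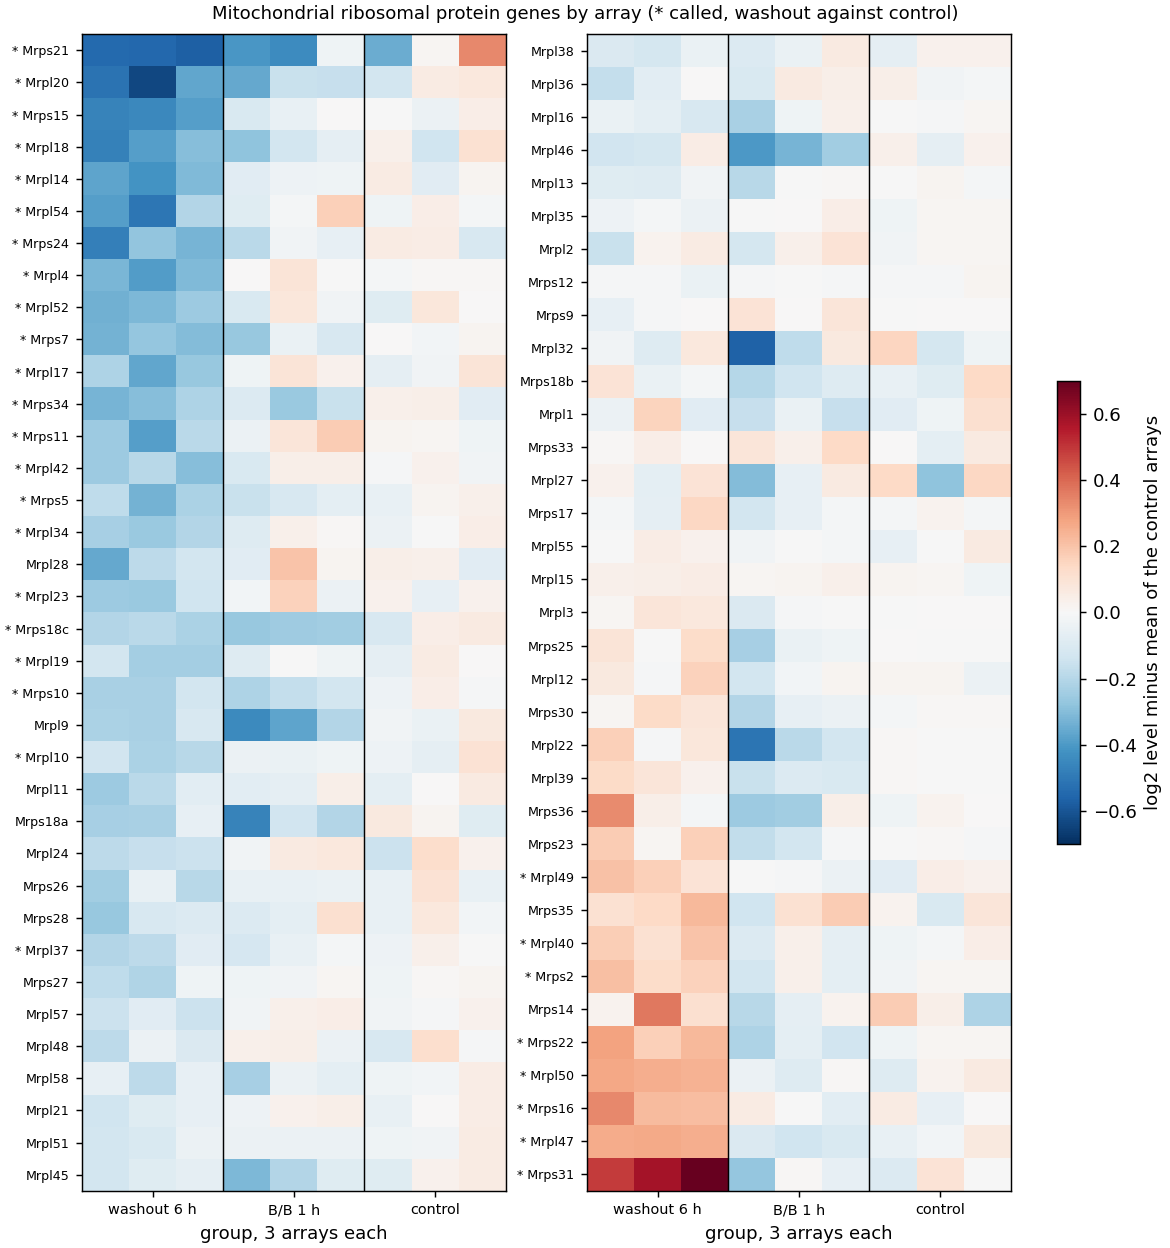
Log2 level of each of the 71 members (rows, in 2 columns) on each of 9 arrays, minus the mean of its 3 control arrays, with groups in the order washout, B/B 1 h and control. Rows run by the difference between washout and control from Mrps21 (-0.56, top left) to Mrps31 (0.62, bottom right), and stars mark the 30 members past the threshold in that comparison.

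Mrps31, a small-subunit protein found in mitochondria and not in bacterial ribosomes, read 7.46, 7.55 and 7.74 after washout, 6.70, 6.98 and 6.91 at B/B 1 h and 6.87, 7.06 and 6.97 in control (log2). All 3 washout arrays lay above all others, and B/B 1 h and control overlapped. The difference from control was 0.62 ± 0.093 (log2, SE, n = 3 per group) at a limma adjusted p of 7.59e-04, and it ran from 0.54 to 0.68 over 18 alternatives.

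Mrpl47, the counterpart of bacterial protein L29 near the exit of the peptide tunnel, read 7.42, 7.42 and 7.42 after washout, 7.06, 7.02 and 7.05 at B/B 1 h and 7.11, 7.14 and 7.22 in control (log2). The 3 groups did not overlap, and it was highest after washout and lowest at B/B 1 h. Its rise over control was 0.26 ± 0.043 (log2, SE; limma adjusted p 0.00127). It was 0.08 at an adjusted p of 0.529 with its 1-symbol probe sets averaged, since the other of these stood at -0.11. That other probe set had a mean log2 level of 4.06, where the one used had 7.21. A probe set shared by Mrpl47 and Actl6a, with a mean log2 level of 10.33, stood at -0.05 after washout (limma adjusted p 0.414 in a separate fit). Mrps16, the counterpart of bacterial S16, read 6.604, 6.486 and 6.480 after washout, 6.321, 6.260 and 6.191 at B/B 1 h and 6.321, 6.206 and 6.268 in control (log2). Only the washout arrays stood apart from the rest, at 0.26 over control (log2; limma adjusted p 0.00606) and at 0.08 with probe sets averaged (adjusted p 0.577). The other Mrps16 probe set stood at -0.09 and had a mean log2 level of 4.74, where the one used had 6.35.

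Mrps22, a small-subunit protein specific to mitochondria, read 8.62, 8.50 and 8.56 after washout, 8.12, 8.27 and 8.20 at B/B 1 h and 8.31, 8.35 and 8.35 in control (log2). Again the 3 groups did not overlap, with control in the middle, and the rise over control was 0.225 ± 0.052 (log2, SE; limma adjusted p 0.00885). Mrpl50, a large-subunit protein specific to mitochondria, read 9.621, 9.604 and 9.592 after washout, 9.308, 9.261 and 9.360 at B/B 1 h and 9.260, 9.377 and 9.415 in control (log2). Its washout arrays lay above all others, a rise of 0.26 ± 0.051 (log2, SE; limma adjusted p 0.00398), while B/B 1 h and control overlapped. The remaining calls were close to the threshold. Mrps2, a counterpart of bacterial S2, and Mrpl40 and Mrpl49, specific to mitochondria, stood at 0.17, 0.16 and 0.15 (log2), with limma adjusted p of 0.0359, 0.0392 and 0.0427. Their highest adjusted p over 18 alternatives were 0.12, 0.123 and 0.141, and the call was lost in 9, 7 and 11 of them.

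Mrps15, the counterpart of bacterial S15, which binds small-subunit RNA early in assembly in Escherichia coli, read 9.92, 9.94 and 10.01 after washout, 10.28, 10.34 and 10.39 at B/B 1 h and 10.39, 10.35 and 10.44 in control (log2). All washout arrays were below all others, and the fall against control was -0.43 ± 0.047 (log2, SE; limma adjusted p 9.54e-05, at most 7.40e-04 over its alternatives). Mrpl4, whose bacterial counterpart lines the peptide exit tunnel, read 8.75, 8.68 and 8.76 after washout, 9.07, 9.16 and 9.06 at B/B 1 h and 9.05, 9.08 and 9.07 in control (log2). Its difference was -0.34 ± 0.044 (log2, SE; limma adjusted p 2.93e-04), with B/B 1 h and control overlapping. Mrpl14, a counterpart of bacterial L14 at the face between the subunits, read 7.53, 7.48 and 7.58 after washout, 7.82, 7.86 and 7.87 at B/B 1 h and 7.95, 7.82 and 7.92 in control (log2). Its washout arrays too were below all others, at -0.37 ± 0.049 against control (log2, SE; limma adjusted p 3.82e-04).

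Mrpl20, a counterpart of bacterial L20, read 7.81, 7.69 and 7.97 after washout, 7.97, 8.17 and 8.17 at B/B 1 h and 8.20, 8.39 and 8.40 in control (log2). The 3 groups did not overlap, with B/B 1 h in the middle. It stood at -0.50 ± 0.087 after washout (log2, SE; limma adjusted p 0.0018) and at -0.22 at B/B 1 h (adjusted p 0.216). Mrps21, a counterpart of bacterial S21, had the lowest value of the family, -0.56 ± 0.16 (log2, SE), and its control arrays spread widely. It read 6.16, 6.16 and 6.14 after washout, 6.30, 6.26 and 6.68 at B/B 1 h and 6.36, 6.72 and 7.04 in control (log2). The call, at a limma adjusted p of 0.0282, was lost without any 1 washout array or without control replicate 2 or 3, at up to 0.0845. Mrpl18, a counterpart of bacterial L18, and Mrpl54, specific to mitochondria, fell by 0.39 and 0.37 (log2; limma adjusted p 0.00496 and 0.00952), and Mrps24, the counterpart of bacterial S3, by 0.36 (adjusted p 0.0041).

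**Figure D2:**
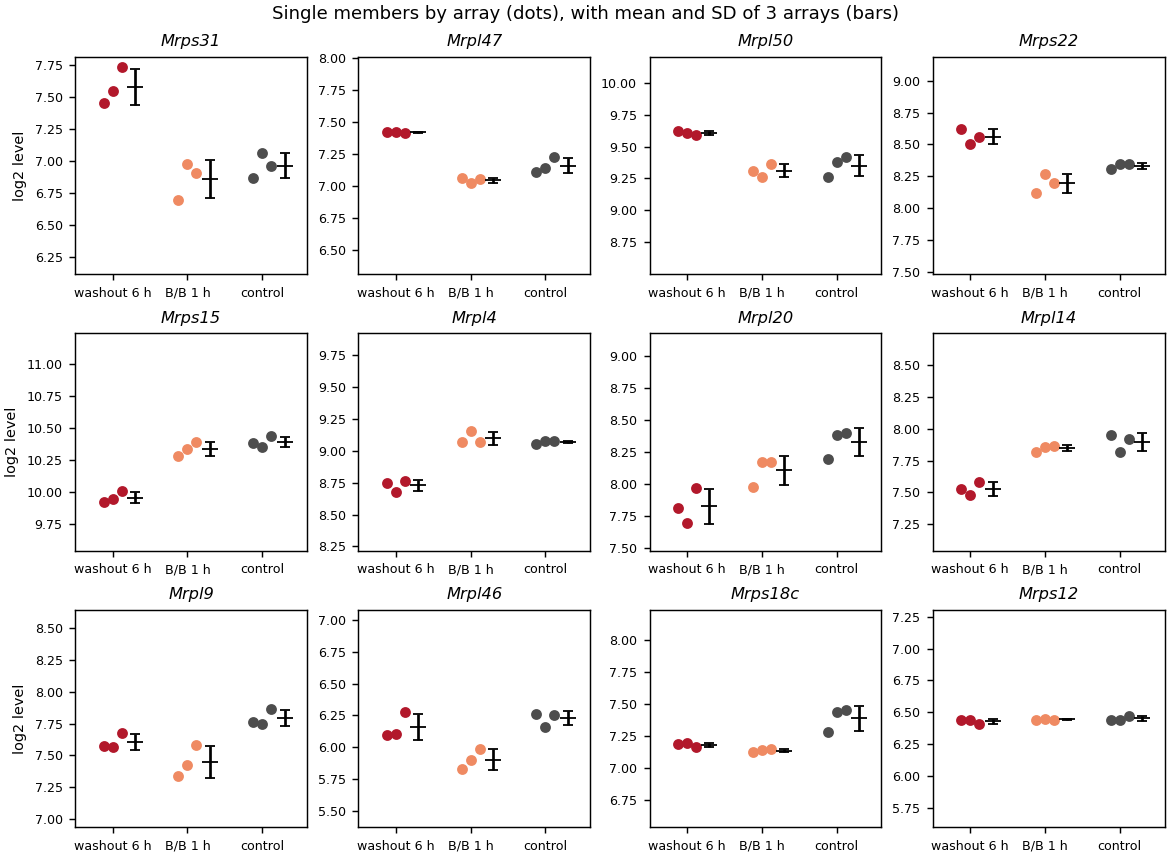
Log2 level (vertical axis, of the same span in each panel) of 12 members on each array in washout, B/B 1 h and control cells, with the mean and SD of 3 arrays beside the dots. Mrps31, Mrpl47, Mrpl50 and Mrps22 were higher after washout and Mrps15, Mrpl4, Mrpl20 and Mrpl14 lower, Mrpl9, Mrpl46 and Mrps18c were lower than control at B/B 1 h, and Mrps12 had 1 value on 6 of 9 arrays.

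At B/B 1 h the calls ran in 1 direction. Mrpl9, a counterpart of bacterial L9, Mrpl46, specific to mitochondria, and Mrps18c, 1 of 3 mammalian homologues of bacterial S18, fell by 0.34, 0.32 and 0.25 (log2), and 0 members rose. These 3 were 4.23% of the family, against 2.89% of all genes tested, of which 1.88% were lower and 1.01% higher. That split of all genes, 418 lower and 224 higher, was 812 and 163 with array medians centred, 299 and 276 with quantile normalization, 650 and 302 with the lowest 30% of genes left out and 860 and 368 with a variance trend. In the upper 50% by level they were 4.35% of the members there, against 5.12% of all such genes, 3.51% lower and 1.61% higher. At an unadjusted limma p under 0.05, 0 members were higher and 13 lower (18.3%), against 8.16% and 10.3% of all genes. The arrays did not overlap in 19 members (26.8%, against 21.3% of all genes), with B/B 1 h below control in all 19 and above it in 0, where all genes had 12.3% below and 9% above. Shares without overlap, in each comparison, and at unadjusted p were not taken among genes in the upper 50% by level.

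Mrpl9 read 7.57, 7.56 and 7.68 after washout, 7.34, 7.42 and 7.59 at B/B 1 h and 7.76, 7.75 and 7.86 in control (log2). Mrpl46 read 6.10, 6.10 and 6.28 after washout, 5.83, 5.90 and 5.99 at B/B 1 h and 6.26, 6.16 and 6.26 in control (log2), with washout and control overlapping. Mrps18c read 7.18, 7.20 and 7.17 after washout, 7.12, 7.14 and 7.15 at B/B 1 h and 7.28, 7.44 and 7.45 in control (log2), and both other groups lay below control. B/B and control arrays did not overlap in any of the 3, and of them Mrpl46 was called higher after washout than at B/B 1 h (0.26 ± 0.064, log2, SE; limma adjusted p 0.0134). The limma adjusted p at 1 h were 0.0313, 0.0313 and 0.0344, and at most 0.117, 0.112 and 0.119 over the alternatives. The count of 3 was 0 without B/B 1 h replicate 1 or 2 or control replicate 2 or 3, and 1 without washout replicate 1 or 2 or control replicate 1. It was 2 without washout replicate 3 or B/B 1 h replicate 3, and 1 with only the 2 groups in the fit.

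The median difference of the members from their own control means was -0.11, -0.04 and -0.01 on B/B 1 h replicates 1, 2 and 3, against -0.03, 0.01 and 0.01 on the control arrays (log2). Replicate 1 was the lowest of these, and replicate 3 lay within the range of control. Replicate 1 also had the highest median over all genes of the 9 arrays, 5.23, the others lying between 5.14 and 5.17. The family's median at B/B 1 h was -0.05 with all arrays and -0.02 without replicate 1 (log2), where that of all genes was 0.00 in both. On the washout arrays the same median was -0.13, -0.08 and -0.05, each below every control array.

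Between washout and B/B 1 h, 13 members rose and 16 fell, together 40.8% of the family against 28.6% of all genes tested. By direction these were 18.3% higher and 22.5% lower, against 16.6% and 12% of all genes. In the upper 50% by level, 42% of members passed, 18.8% higher and 23.2% lower, against 51% of all such genes, 30.8% higher and 20.3% lower. The arrays did not overlap in 42 members (59.2%, against 39.6% of all genes), with washout above in 17 (23.9%, against 21.1%) and below in 25 (35.2%, against 18.4%). With array medians centred 14 rose and 10 fell, and with quantile normalization 11 and 23. Without B/B 1 h replicate 2 the counts were 11 and 10, and without B/B 1 h replicate 3 they were 15 and 10. The family's median was -0.02 (log2), as was that of all genes, and with medians centred both were 0.01. They were -0.07 and -0.01 with quantile normalization, and -0.06 and -0.01 without B/B 1 h replicate 1 (log2), the family given first.

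All 8 members that rose against control also rose between B/B 1 h and washout, as did Mrpl22, Mrpl46, Mrps23, Mrpl39 and Mrps30. Mrpl22, a counterpart of bacterial L22, read 6.23, 6.06 and 6.14 after washout, 5.56, 5.88 and 5.94 at B/B 1 h and 6.07, 6.06 and 6.06 in control (log2). Its difference from B/B 1 h was 0.35 ± 0.091 (log2, SE; limma adjusted p 0.0157), with B/B 1 h replicate 1 the lowest of the 9 arrays, and the call was lost without washout replicate 1 (adjusted p 0.0602). Mrps23, specific to mitochondria, stood at 0.23 (adjusted p 0.0168), a call lost in 5 of 18 alternatives. Mrpl17, a counterpart of bacterial L17, and Mrpl52, specific to mitochondria, fell against B/B 1 h by 0.31 and 0.28 and against control by 0.28 and 0.30 (log2; limma adjusted p 0.00292 and 0.00561 against B/B 1 h). Of the 22 that fell against control, 13 also fell against B/B 1 h, and Mrpl28, Mrpl24 and Mrpl57 passed against B/B 1 h and not against control. No comparison called 32 of the 71 members. The comparisons share arrays, so these counts are not independent of each other.

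Large-subunit members by symbol had 4 higher and 13 lower of 43 after washout against control (median -0.09, log2), and small-subunit members 4 higher and 9 lower of 28 (median -0.02). With Mrps30 and Mrps18a, which lie in the large subunit in mitoribosome structures, moved there, large-subunit members had 4 higher and 13 lower of 45 and small-subunit members 4 higher and 9 lower of 26. Mrps36, called in no comparison, was left with the small subunit by its symbol alone, and its place in the mitoribosome was not checked. Members with a bacterial counterpart had 3 higher and 17 lower of 43 (median -0.16, log2), and those specific to mitochondria 5 higher and 5 lower of 28 (median -0.08). Between washout and B/B 1 h the members with a bacterial counterpart had 4 higher and 12 lower of 43 (median -0.08) and those specific to mitochondria 9 higher and 4 lower of 28 (median 0.11). The difference between these classes was not tested.

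The 3 homologues of bacterial S18 had unlike values. Only Mrps18c was counted above as having a bacterial counterpart, and Mrps18a and Mrps18b as specific to mitochondria. Mrps18c, the small-subunit form, was lower than control at 1 h and after washout, by 0.25 and 0.21 (log2; limma adjusted p 0.0344 and 0.014). The call after washout was lost without control replicate 2 or 3, with probe sets averaged and at the stricter threshold, at an adjusted p of up to 0.0907. Its other probe set had a mean log2 level of 4.21, where the one used had 7.24. Mrps18a, the form in the large subunit, stood at -0.27 at 1 h and -0.17 after washout (log2; adjusted p 0.149 and 0.22), and Mrps18b at -0.14 and 0.01 (adjusted p 0.3 and 0.945). A second Mrps18b probe set stood at 0.28 after washout (log2; limma adjusted p 0.0143 in a fit of all probe sets with 1 symbol), so the probe sets of this gene disagreed.

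Mrpl12, the stalk protein that also binds mitochondrial RNA polymerase in human cells, stood at 0.07 after washout and -0.04 at 1 h (log2; limma adjusted p 0.441 and 0.725). Mrps12, the counterpart of bacterial S12 of the decoding centre, stood at -0.02 and -0.01 (log2; adjusted p 0.743 and 0.932). Its value was the same to the last decimal given on 6 of 9 arrays, and such repeats on at least 2 arrays occurred in 24 members and in 47.3% of all genes. Mrps30, a large-subunit protein despite its symbol, read 8.39, 8.51 and 8.46 after washout, 8.17, 8.32 and 8.33 at B/B 1 h and 8.36, 8.38 and 8.38 in control (log2). Its difference between washout and B/B 1 h was 0.18 ± 0.054 (log2, SE; limma adjusted p 0.0352), and the call was lost in 9 of 18 alternatives.

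RefSeq promoter sequences on build GRCm38.p6 were held for 62 of the 71 members, from 250 bases before the first listed start to 50 bases after it. The letters searched, on both strands, were those of factors known to act on nuclear genes for mitochondrial proteins, NRF1 (GCGCNTGCG), the ETS family with GABPA (CCGGAAG) and YY1 (AAGATGGCG), with the SP/KLF box (GGGCGG) and the E-box (CACGTG). The NRF1 letters were in 24.2% of the members' promoters, against 8.95% of 17492 protein-coding promoters, the ETS letters in 35.5% against 11.9%, and the YY1 letters in 12.9% against 1.94%. The SP/KLF letters were in 51.6% against 46.3% and the E-box in 8.06% against 7.9%. Of the 8 members that rose after washout, 0 held the NRF1 and 2 the ETS letters, and of the 18 with a promoter that fell, 5 (27.8%) and 6 (33.3%) did. Of the 36 not called 10 (27.8%) and 14 (38.9%) did, so that members that fell did not stand apart in the NRF1 and ETS shares. The SP/KLF letters were in 12 that fell (66.7%), 16 not called (44.4%) and 4 that rose (50%). In the same order the YY1 letters were in 4 (22.2%), 4 (11.1%) and 0, and the E-box in 3 (16.7%), 2 (5.56%) and 0. Differences between these small groups were not tested. A match of letters is a description and not a bound site.

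Shown are the 150 bases before the start and the 50 from it on, for members that rose (Mrps31 and Mrps16) or fell (Mrps15 and Mrps21) after washout and for members lower at 1 h (Mrpl9 and Mrpl46). Capitals mark any of the searched letters on either strand, and all runs are 5′ to 3′ on the gene's own strand.
Mrps31, chr8:22411190-22411389, plus strand: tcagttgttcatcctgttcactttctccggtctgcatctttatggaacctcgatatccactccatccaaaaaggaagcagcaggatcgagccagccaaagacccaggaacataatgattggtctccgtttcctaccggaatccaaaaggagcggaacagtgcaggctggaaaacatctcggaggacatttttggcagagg
Mrps16, chr14:20393441-20393640, minus strand: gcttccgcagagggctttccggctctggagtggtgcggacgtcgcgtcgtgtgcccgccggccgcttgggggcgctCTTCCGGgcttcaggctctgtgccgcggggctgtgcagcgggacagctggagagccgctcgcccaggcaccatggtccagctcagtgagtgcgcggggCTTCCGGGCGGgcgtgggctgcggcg
Mrps15, chr4:126046778-126046977, plus strand: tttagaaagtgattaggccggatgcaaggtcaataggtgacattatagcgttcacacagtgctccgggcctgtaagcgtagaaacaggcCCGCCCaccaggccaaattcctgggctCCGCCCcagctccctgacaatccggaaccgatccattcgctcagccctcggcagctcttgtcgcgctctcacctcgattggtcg
Mrps21, chr3:95871465-95871664, minus strand: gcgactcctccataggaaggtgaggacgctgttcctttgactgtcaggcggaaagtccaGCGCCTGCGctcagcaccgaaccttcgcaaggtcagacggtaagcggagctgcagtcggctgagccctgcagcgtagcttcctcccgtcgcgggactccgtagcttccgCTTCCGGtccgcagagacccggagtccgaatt
Mrpl9, chr3:94443186-94443385, plus strand: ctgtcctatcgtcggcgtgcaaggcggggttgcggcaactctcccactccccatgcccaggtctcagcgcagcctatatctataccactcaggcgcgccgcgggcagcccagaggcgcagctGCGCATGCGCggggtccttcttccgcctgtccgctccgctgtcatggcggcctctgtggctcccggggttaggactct
Mrpl46, chr7:78783040-78783239, minus strand: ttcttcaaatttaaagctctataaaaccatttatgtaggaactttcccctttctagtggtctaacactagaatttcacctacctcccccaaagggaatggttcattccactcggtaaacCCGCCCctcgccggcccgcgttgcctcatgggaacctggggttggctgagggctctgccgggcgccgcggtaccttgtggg
Mrps31, with the highest rise, held none of the letters in this window. Mrps16 held the ETS letters at 2 places, 1 of them overlapping an SP/KLF box. Mrps15 held 2 SP/KLF boxes, and Mrps21 held 1 NRF1 and 1 ETS match. In Mrpl9 the NRF1 letters were read on both strands of 1 run, the matches overlapping, and Mrpl46 held 1 SP/KLF box.

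Of the 62 members, 23 (37.1%) had another start on the opposite strand within 1000 bases upstream, against 12.3% of protein-coding genes. Mrpl46 and Mrps11, a counterpart of bacterial S11, start 42 bases apart on opposite strands of chromosome 7. At 1 h Mrpl46 stood at -0.32 and Mrps11 at 0.08 (log2; limma adjusted p 0.0313 and 0.589), and after washout Mrpl46 stood at -0.07 and Mrps11 at -0.28 (adjusted p 0.54 and 0.0117). The difference between these genes was not tested.

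Of the 23 members with such a neighbour, 11 members and 13 neighbours passed after washout against control, and both passed in 6 pairs, in opposite directions in 4. Mrpl46 and Mrps11 are neighbours of each other, so this pair was counted from each side. Mrps11 is therefore among the 11 members and also among the 13 neighbours. Of all genes tested 26.2% passed in this comparison, and 48.1% of those in the upper 50% by mean level. Whether members or neighbours differ from these shares was not tested. Whether 6 differs from what the separate counts give was not tested. Mrps7, for example, fell by 0.30 and Gga3, for a Golgi clathrin adaptor, rose by 0.62 (log2; limma adjusted p 0.00293 and 4.74e-05), and Mrpl50 rose by 0.26 and Zfp189, named as a zinc finger gene, by 0.66 (adjusted p of Zfp189 8.79e-04). These neighbours were named after their values were seen.

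**Figure D3:**
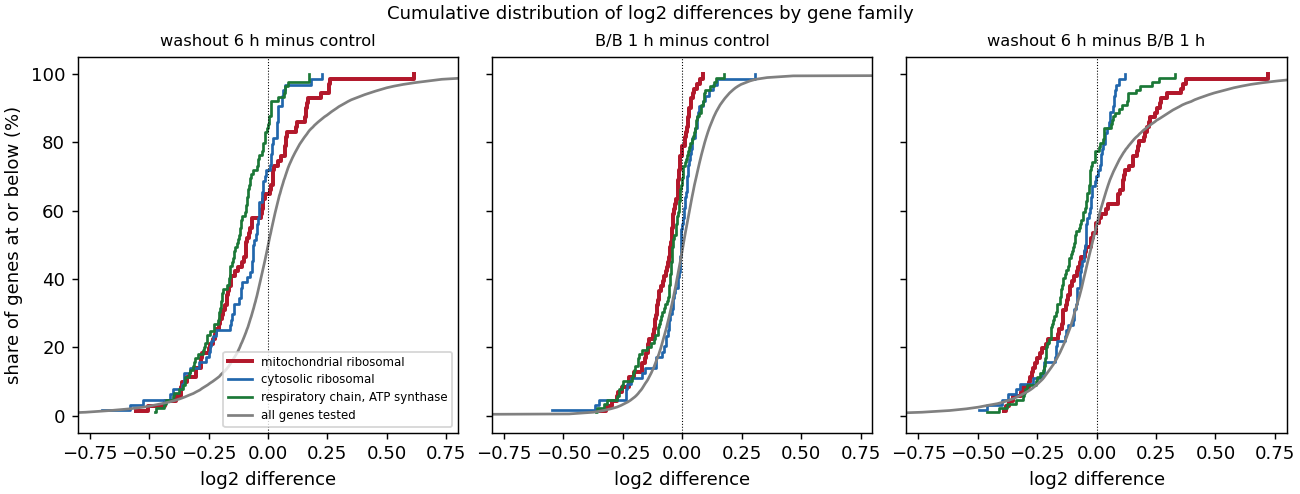
Share of genes (vertical axis, %) at or below each log2 difference (horizontal axis) for the 71 members, 64 cytosolic ribosomal protein genes, 89 genes with symbols of the respiratory chain and ATP synthase and all genes tested, in 3 comparisons. In washout against control the members run from -0.56 to 0.62, and at B/B 1 h against control no member is above 0.09.

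After washout against control, nuclear genes with symbols of the respiratory chain and ATP synthase had 0 higher and 29 lower of 89 (median -0.13, log2), and cytosolic ribosomal protein genes 1 higher and 11 lower of 64 (median -0.06). Taken by symbol, the 89 also held the complex I assembly factor genes Ndufaf1 to Ndufaf8, and Atp5c1-ps and Uqcrh-ps1, named as pseudogenes. At B/B 1 h the counts were 0 higher and 3 lower of 89 and 0 higher and 1 lower of 64. All were read from the limma fit that gave the members' values, and whether they differ from the members was not tested. Of all genes tested 14.5% were higher and 11.7% lower after washout against control, and 1.01% and 1.88% at B/B 1 h.

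The other genes of mitochondrial translation were read from lists. In washout against control, 14.5% of all genes tested were higher and 11.7% lower. Among genes with a mean level above the median of all genes, these shares were 26.4% and 21.8%. Whether any of the lists here and below differs from these shares was not tested. Of the mitoribosome proteins with other names, Dap3 (-0.07), Ptcd3 (0.02) and Gadd45gip1 (-0.03) were measured, and 0 of 3 passed after washout against control, with 0 also at an unadjusted limma p under 0.05. Assembly factors had 12 higher and 4 lower of 26 after washout (median 0.16, log2). Mrm1, a methyltransferase of large-subunit RNA, rose by 0.54, Mtg2, a GTPase of large-subunit assembly, by 0.49 and Ybey, an RNA-processing endonuclease, by 0.45 (log2; limma adjusted p 2.16e-04, 4.10e-04 and 4.83e-04). Mterf3, which acts in large-subunit assembly, rose by 0.40 (adjusted p 2.77e-04). Among the 4 lower, Rcc1l stood at -0.42 and Tfb1m at -0.39 (log2; limma adjusted p 0.00349 and 0.0023). Ngrn, which binds large-subunit RNA, stood at 0.29 (adjusted p 0.0127), a call lost without washout replicate 1 or control replicate 2. Mettl17, a factor of small-subunit assembly, read 6.02, 6.02 and 5.98 after washout, 5.44, 5.30 and 5.52 at B/B 1 h and 5.75, 5.67 and 5.75 in control (log2). Its groups did not overlap, and it stood at 0.29 after washout and -0.30 at 1 h (log2; limma adjusted p 0.00462 and 0.03), the call at 1 h being lost in 10 of 18 alternatives.

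Translation factors, in a list that also holds Lrpprc, Oxa1l, Letm1, Cox18 and Tmem177, had 5 higher and 2 lower of 17 after washout (median 0.05, log2). Tmem177 was among the higher and Cox18 among the lower. Mtfmt, which formylates the initiator methionyl-tRNA, rose by 0.695, Mtif3, an initiation factor, by 0.68, and Taco1, an activator of cytochrome oxidase subunit translation, by 0.55 (log2; limma adjusted p 1.14e-05, 0.00292 and 0.00156). Mtrf1, of the release factor family, rose by 0.51 (log2; adjusted p 0.0118). The 2 lower were Cox18 at -0.53 and Gfm1 at -0.22 (log2; limma adjusted p 1.75e-05 and 0.00707). Mitochondrial aminoacyl-tRNA synthetases and the transamidosome had 3 higher and 4 lower of 19 (median -0.08). Lars2 for leucine, Sars2 for serine and the transamidosome subunit gene Gatb fell by 0.61, 0.46 and 0.39 (log2; limma adjusted p 2.98e-04, 4.88e-04 and 2.41e-04). Pars2, for proline, stood at 0.36 (log2; adjusted p 0.0369), a call lost in 9 of 18 alternatives. Sars2 starts head to head with Mrps12, 147 bases away. At 1 h the methionine enzyme gene Mars2 was lower, by 0.31 (log2; limma adjusted p 0.0397), and its call was lost in 11 of 18 alternatives.

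Genes for copying and transcribing mitochondrial DNA and processing its RNA, a list that also holds Mrpl12, had 9 higher and 2 lower of 20 after washout (median 0.20, log2). Tefm, an elongation factor of the mitochondrial RNA polymerase, rose by 0.88 and Fastkd1, of a family that acts on mitochondrial RNA, by 0.55 (log2; limma adjusted p 1.28e-04 and 4.98e-05). Mterf1a, a transcription termination factor gene at 0.74 (adjusted p 0.0072), was in the lowest 30% by mean level. Polg2, the accessory subunit of mitochondrial DNA polymerase, read 6.05, 6.09 and 6.05 after washout, 7.33, 6.99 and 7.17 at B/B 1 h and 5.58, 5.99 and 5.95 in control (log2). At 1 h it had the highest value of these lists, 1.32 ± 0.11 (log2, SE; limma adjusted p 2.52e-04), and after washout it stood at 0.22 (adjusted p 0.207). Tfb2m, a transcription initiation factor, and Twnk, the helicase, stood at 0.37 and 0.32 after washout and at -0.40 and -0.29 at 1 h (log2). Their limma adjusted p were 0.00193 and 0.00417 after washout and 0.0128 and 0.0475 at 1 h, and the calls at 1 h were lost in 3 and 12 of 18 alternatives. A probe set shared by Twnk and Mrpl43, fitted apart, stood at 0.09 after washout and -0.02 at 1 h (log2; limma adjusted p 0.159 and 0.883).

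Regulators of mitochondrial gene expression had 4 higher and 3 lower of 15 after washout (median 0.04, log2). Ppargc1b, a co-activator, rose by 0.47, and Gabpa and Gabpb2, subunits of an ETS-family factor, by 0.29 and 0.26 (log2; limma adjusted p 0.00107, 6.82e-04 and 0.00244). Pprc1, a co-activator of the same family as Ppargc1b, fell by 0.50 (log2; adjusted p 2.28e-05). Myc, a transcription factor of growth genes that include those for ribosomes, stood at 0.22 after washout and 0.53 at 1 h (log2; limma adjusted p 0.00563 and 3.05e-04). Of 10 genes encoded in mitochondrial DNA, 1 passed after washout, ND6, a complex I subunit, which fell by 0.60 (log2; limma adjusted p 0.0377, lost in 7 of 18 alternatives). At 1 h 0 of 10 passed, and 0 also at an unadjusted limma p under 0.05.

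**Figure D4:**
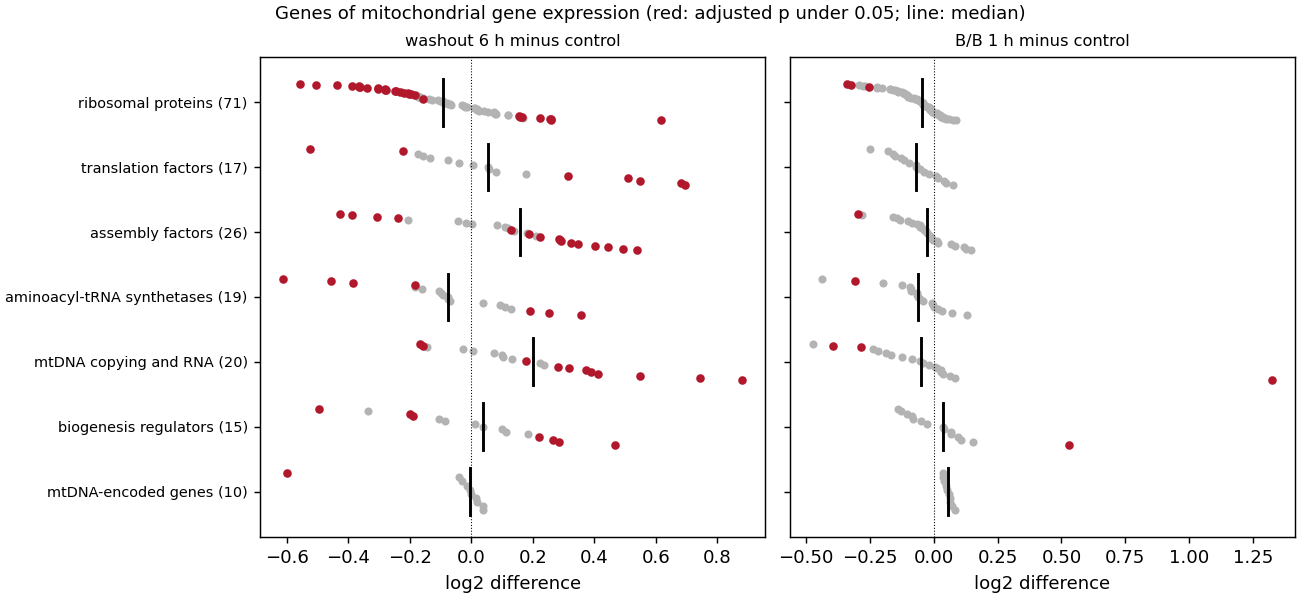
Log2 difference (horizontal axis) of each gene in 7 groups of mitochondrial gene expression, washout minus control at left and B/B 1 h minus control at right, with numbers of measured genes in parentheses, red dots for adjusted p under 0.05 and black lines for medians. After washout the median was -0.09 for the 71 ribosomal protein genes, 0.16 for 26 assembly factors and 0.20 for 20 genes of mitochondrial DNA copying and RNA.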

How the data were processed

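Biotin-labelled cRNA from Trizol-extracted total RNA was hybridised to 1-colour Affymetrix arrays, per the labels' protocols. The deposited values were probe set levels read as log2 from their range, with base 2 inferred, on which every fold rests. The submitters' processing notes name Partek 6.6, and summary and normalization methods are not given in the sources used here. Of 41345 probe sets, 23521 had 1 gene symbol.

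R 4.3.3 with limma 3.58.1 fitted 3 group means over all 9 arrays and 22180 genes. Residual degrees of freedom were 6, those of the prior 3.38, and log2 differences had a median SE of 0.0636. With 3 arrays per group, their number limits precision. The 18 alternatives per count changed scaling, low filter, probe sets, variance prior, array weights, groups, threshold or 1 array left out. The code was tested on simulated data. Although the members' rule uses symbols alone, the members and lists were chosen with earlier results of these data known. Named were the 8 highest and 8 lowest members called in a comparison, 8 fixed subunits and up to 3 genes called per list and comparison. Rcc1l, Tfb1m, Cox18 and Gfm1 were added after values were seen, to show genes that fell, and were not read over the alternatives. Mrps6, a fixed subunit, is read from a shared probe set under other observations.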

Additional observations from a re-analysis of the deposited data

How the results depend on the processing

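No paired analysis was possible because the labels carry no replicate numbers. With array medians centred, 975 genes passed at B/B 1 h against control, 5 members rose after washout against control and 10 fell between washout and B/B 1 h. A variance trend gave 1228 genes at B/B 1 h against control. With only the 2 groups compared, 359 genes passed there and 1 member was lower. At adjusted p under 0.01, 239 genes and 0 members passed there, 5 members rose and 14 fell after washout against control, and 7 rose and 9 fell between washout and B/B 1 h. Leaving out 1 array at a time gave 323 to 691 genes and 0 to 2 lower members at B/B 1 h against control. It gave 5 to 7 higher and 17 to 23 lower members after washout against control, and 10 to 15 higher and 10 to 17 lower between washout and B/B 1 h. These fits have fewer arrays. The other counts of members in each direction, and of all genes called in either, were within 1.5 times of those reported. The members' medians moved by less than 0.0806, the SD of their median log2 level between replicates, which is no spread of a difference. At B/B 1 h the median went from -0.05 to -0.10 with array medians centred, where that of all genes went from 0.00 to -0.05. Whether such moves exceed the spread of a difference was not tested. No called gene that was named by the rule above changed sign under the 18 alternatives. The cause of the other changes was not tested.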

Other observations

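Mrpl30, Mrpl33, Mrpl41, Mrpl43, Mrpl44, Mrpl53 and Mrps6 were measured here by probe sets that also name another gene, so that they were not members. Such probe sets were fitted apart by limma, with adjustment over 1814 of them. That of Mrps6 and Slc5a3, a myo-inositol transporter gene, stood at -0.26 after washout and 0.02 at B/B 1 h, both against control (log2; limma adjusted p 6.59e-04 and 0.829). That of Mrpl44 and Wdfy1 stood at 0.13 and -0.31 (adjusted p 0.117 and 0.011), and that of Mrpl41 and Dph7 at -0.22 and -0.28 (adjusted p 0.0252 and 0.0289). The probe set of Babam2 and Mrpl33 stood at -0.75 after washout (log2; limma adjusted p 1.62e-05), where another, of Mrpl33 and Gm38424, stood at -0.02. The probe sets of Mrpl53 and Ccdc142 stood at 0.23 and -0.40 after washout (log2; adjusted p 0.0718 and 7.05e-04). Some members were also named by shared probe sets. That of Gcfc2 and Mrpl19 stood at 0.31 after washout (log2; limma adjusted p 0.0149), where the member Mrpl19 stood at -0.20 (adjusted p 0.0153). That of Nme3 and Mrps34 stood at -0.25 (adjusted p 0.049955), where the member Mrps34 stood at -0.28. That of Mrps27 and 6430562O15Rik stood at 0.08 (adjusted p 0.425), where the member Mrps27 stood at -0.14. Which of the genes named gave each value was not tested.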
